A study of Schizosaccharomyces pombe with 40 samples.

Results

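Expression of 10 antioxidant and peroxide defence genes was followed in fission yeast (Schizosaccharomyces pombe) with altered rep2 through a time course in hydroxyurea. The genes were chosen by name from a list of Pap1 and redox enzymes: pap1, ctt1, gpx1, tpx1, srx1, trx2, trr1, sod1, gst2 and gst3. All 10 were on the array with 2 probes each, all had a value on each of the 40 arrays, and they are 10 of the 5004 features tested. Genes were matched by the symbol of the platform annotation, and the RefSeq gene table gives their locus tags, among them SPCC965.07C for gst2, SPBC106.02C for srx1, SPAC821.10C for sod1 and SPAC1783.07C for pap1.

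In fission yeast, hydrogen peroxide is sensed through the peroxiredoxin Tpx1 and answered along separate routes. The transcription factor Pap1, related to mammalian AP-1, enters the nucleus after oxidation and drives antioxidant genes at low peroxide, while the stress kinase Sty1 and its factor Atf1 act at higher doses. Catalase (Ctt1) and glutathione peroxidase (Gpx1) remove peroxide, sulfiredoxin (Srx1) returns overoxidised Tpx1 to its active form, thioredoxins and thioredoxin reductase (Trr1) supply electrons to peroxiredoxins, superoxide dismutase (Sod1) turns superoxide into peroxide, and glutathione S-transferases (Gst2 and Gst3) act on glutathione and its conjugates. Hydroxyurea inhibits ribonucleotide reductase and stalls replication, and Rep2 activates MBF, a factor under which genes are transcribed at the start of S phase.

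Per the labels, the 4 strains were Cdelta21, Cdelta53 and Cdelta94, in which rep2 is truncated, and the rep2 site mutant 2C/S-H/Y. No wild-type cells were an array sample of their own. Each strain grew in YES medium at 30 °C to mid log phase and was given 8 mM hydroxyurea and sampled at 0, 10, 30, 60 and 120 min; each strain had 2 arrays at each time. Every array compared the strain's total RNA, labelled with Cy5, with a pool of wild-type mid-log RNA, labelled with Cy3, and a value here is the log2 ratio of the strain to that pool. Its direction was taken as Cy5 over Cy3, since the values come with no statement of it. The labels do not state whether replicate arrays were separate cultures, so the spread behind the p-values may be technical. A ratio of total RNA cannot tell more RNA per cell from a larger share of cells that express the gene.

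Several arrays stood apart from their labels or from each other. In 6 pairs of arrays the probe values differed by an SD under 0.1, and these were all 5 Cdelta53 replicate pairs and, across times, replicate 1 of 2C/S-H/Y at 30 and at 60 min; for the other replicate pairs of a group the SD ran between 0.17 and 0.44. Counting such near-repeats once is given below as an alternative. For each feature all strains shared 1 estimate of the spread, to which the Cdelta53 pairs contributed, so p-values of the other strains also rest on them. In Cdelta21 at 120 min 1205 of 5004 features were called, and 790 of 4999 with near-repeats counted once. The change in the Cdelta94 arrays labelled 30 min was set against the mean change of the other strains, over 4994 features with members left out. It correlated more at 120 min (r = 0.67) than at 30 min (r = 0.36). For those labelled 120 min, r was 0.33 at 120 min and 0.39 at 60 min. These Cdelta94 arrays are named by their labels, and results are also given without them. Other groups were also not closest to their own time, and their labels were kept. They were Cdelta21 at 30 min (r = 0.20, and 0.34 at 60 min) and 2C/S-H/Y at 10 min (−0.08, and 0.22 at 30 min) and 60 min (0.33, and 0.40 at 120 min). In 2C/S-H/Y, the means at 0 and 10 min correlated at 0.59, against 0.83, 0.90 and 0.95 in Cdelta21, Cdelta53 and Cdelta94. Probes 1 and 2 of rep2 averaged −5.19 ± 0.24 and −5.09 ± 0.44 in Cdelta94 and −1.36 ± 0.23 and −4.68 ± 0.34 in Cdelta53. They averaged −0.70 ± 0.14 and −0.90 ± 0.23 in Cdelta21 and 0.63 ± 0.24 and −0.10 ± 0.27 in 2C/S-H/Y (SD, n = 10 arrays for each strain). Where these probes lie relative to the truncations was not examined, so they do not settle the label of Cdelta21 or of 2C/S-H/Y.

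The probes of a gene were averaged, and for 8 of the 10 genes they moved together over the arrays (r between 0.79 and 0.96). They did not for ctt1 and tpx1. The probe difference of ctt1 had an SD of 0.80 over the arrays (r = 0.19), and that of tpx1 an SD of 0.82 (r = −0.39), against a median SD of 0.27 over 4814 genes, of which 1.54% and 1.39% had a larger SD than ctt1 and tpx1. For tpx1 at 0 min, probe 1 and probe 2 read −0.46 and 1.24 in 2C/S-H/Y. In the truncation strains they read −0.27 and 0.96 in Cdelta21, 0.73 and 0.84 in Cdelta94, and 0.62 and 0.00 in Cdelta53. The order of the strains in tpx1 therefore depended on the probe, and the values of both genes are given by probe where they matter.

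**Figure D1:**
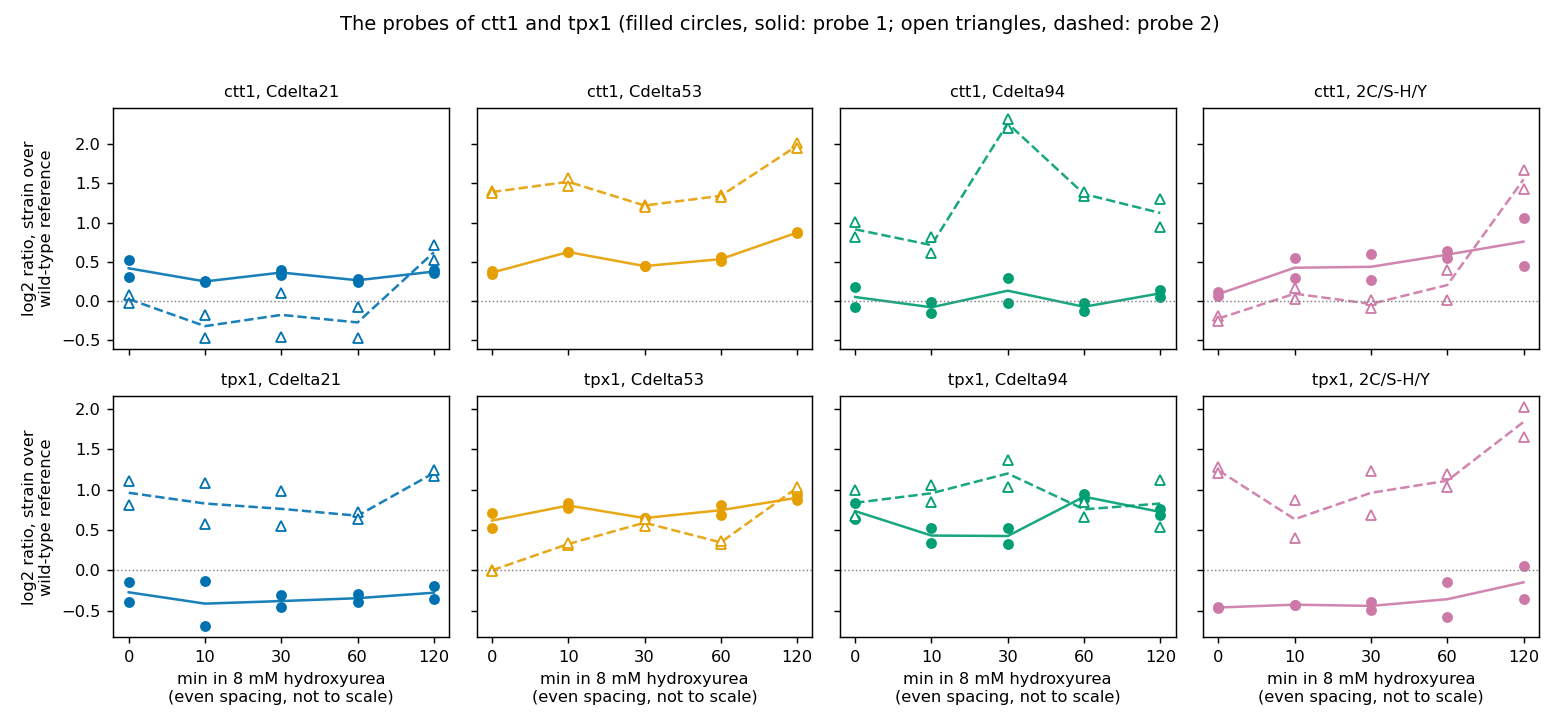
Log2 ratio of each strain to the wild-type reference (y axis) for each probe of ctt1 (upper row) and tpx1 (lower row) by labelled time in hydroxyurea (x axis, min, evenly spaced); points are arrays and lines are means of 2 arrays. The tpx1 probes lie on opposite sides of 0 in Cdelta21 and 2C/S-H/Y at 0 min, and in Cdelta94 the rise of ctt1 in the arrays labelled 30 min is seen at probe 2.

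Before hydroxyurea, gst2, gpx1 and srx1 were above the wild-type reference in all 4 strains, and gst2 had the widest range of the 10 genes. Superoxide dismutase sod1 was called below the reference in the 3 truncation strains, and in 2C/S-H/Y it was below 0 without passing. Of the 10 genes, 7 differed from the reference in Cdelta21 (6 higher, 1 lower), 9 in Cdelta53 (8 higher, 1 lower), 10 in Cdelta94 (6 higher, 4 lower) and 6 in 2C/S-H/Y (6 higher). Of all features, 53.9%, 57.2%, 67.4% and 48.6% differed in these strains, so a difference was common on these arrays. The median of the 10 genes was 0.24, 0.53, 0.44 and 0.35. Calls refer to limma with Benjamini-Hochberg adjustment over all features, at a threshold of 0.05. The reference counts as 1 control here, so its own spread and any effect of the dyes are left out.

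The glutathione S-transferase gene gst2 read 3.01 and 2.94 in Cdelta94, 0.91 and 0.89 in Cdelta21, 1.57 and 1.55 in Cdelta53 and, in the site mutant 2C/S-H/Y, 1.36 and 1.29. No arrays of different strains overlapped, and Cdelta94 was the highest and Cdelta21 the lowest. The mean excess over the reference was 7.87-fold in Cdelta94 (log2 2.98, 95% interval 2.80 to 3.16, adjusted p = 4.18e-21), 2.95-fold in Cdelta53, 2.50-fold in 2C/S-H/Y and 1.86-fold in Cdelta21 (log2 0.90, adjusted p = 3.76e-09). The other transferase gene, gst3, did not follow this order: it was lower than the reference in Cdelta94, at −0.27 and −0.21 (adjusted p = 0.012), and higher in 2C/S-H/Y, at 0.32 and 0.28 (adjusted p = 0.00362), and its means were 0.01 in Cdelta21 and −0.12 in Cdelta53, neither of which passed.

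The sulfiredoxin gene srx1 read 0.67 and 0.54 in Cdelta21, 0.92 and 1.02 in Cdelta94, 1.00 and 1.01 in Cdelta53 and, in the site mutant, 0.84 and 0.85. All arrays were above 0, and Cdelta21 lay below the other strains. The mean ratio was 1.52-fold in Cdelta21 (adjusted p = 3.32e-09), and in Cdelta53 the mean log2 ratio was 1.00 (adjusted p = 6.65e-14). For gpx1, the only glutathione peroxidase gene among the members, the arrays ran between 0.63 in 2C/S-H/Y and 1.09 in Cdelta94, and its mean ratios were 2.10-fold in Cdelta53, 1.98-fold in Cdelta94, 1.81-fold in Cdelta21 and 1.55-fold in 2C/S-H/Y. The largest adjusted p among these 4 was 1.55e-05.

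The catalase gene ctt1 was higher than the reference in Cdelta53 (0.87 and 0.88), Cdelta94 (0.37 and 0.60) and Cdelta21 (0.30 and 0.14, adjusted p = 0.035), and in 2C/S-H/Y it was at −0.07 and −0.06. In Cdelta94 the difference lay at probe 2 (0.92), with probe 1 at 0.05. In Cdelta21 it lay at probe 1 (0.42), with probe 2 at 0.03. Both probes passed in Cdelta53, with probe 1 at 0.36 and probe 2 at 1.39. The peroxiredoxin gene tpx1 averaged 0.79 in Cdelta94, 0.39 in 2C/S-H/Y, 0.34 in Cdelta21 and 0.31 in Cdelta53 and was called higher in all 4, but probe 1 alone was below 0 in 2C/S-H/Y (−0.46) and Cdelta21 (−0.27), and probe 2 alone was at 0.00 in Cdelta53.

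The thioredoxin genes and pap1 split the strains. For trx2, which encodes the mitochondrial thioredoxin, Cdelta53 (0.68 and 0.66) and Cdelta94 (0.34 and 0.43) were above the reference, while Cdelta21 (−0.14 and −0.22) and 2C/S-H/Y (−0.23 and −0.26) lay below 0 without passing (adjusted p = 0.151 and 0.0516). For trr1, thioredoxin reductase, 2C/S-H/Y (0.56 and 0.60) and Cdelta53 (0.40 and 0.39) were above it and Cdelta94 (−0.37 and −0.26) was below it. Cdelta94 was also low for pap1, at −0.20 and −0.31 (adjusted p = 0.00113), against 0.35 and 0.15 in Cdelta21 and 0.21 and 0.19 in Cdelta53, which were higher than the reference, and 0.04 and 0.07 in 2C/S-H/Y. Superoxide dismutase sod1 read −0.39 and −0.68 in Cdelta94, −0.46 and −0.35 in Cdelta21 and −0.36 and −0.40 in Cdelta53, and all 3 passed, while −0.31 and −0.15 in 2C/S-H/Y did not (adjusted p = 0.117). Set directly against Cdelta21, Cdelta53 and Cdelta94 at 0 min, sod1 in 2C/S-H/Y did not differ in limma (adjusted p = 0.465, 0.477 and 0.116).

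**Figure D2:**
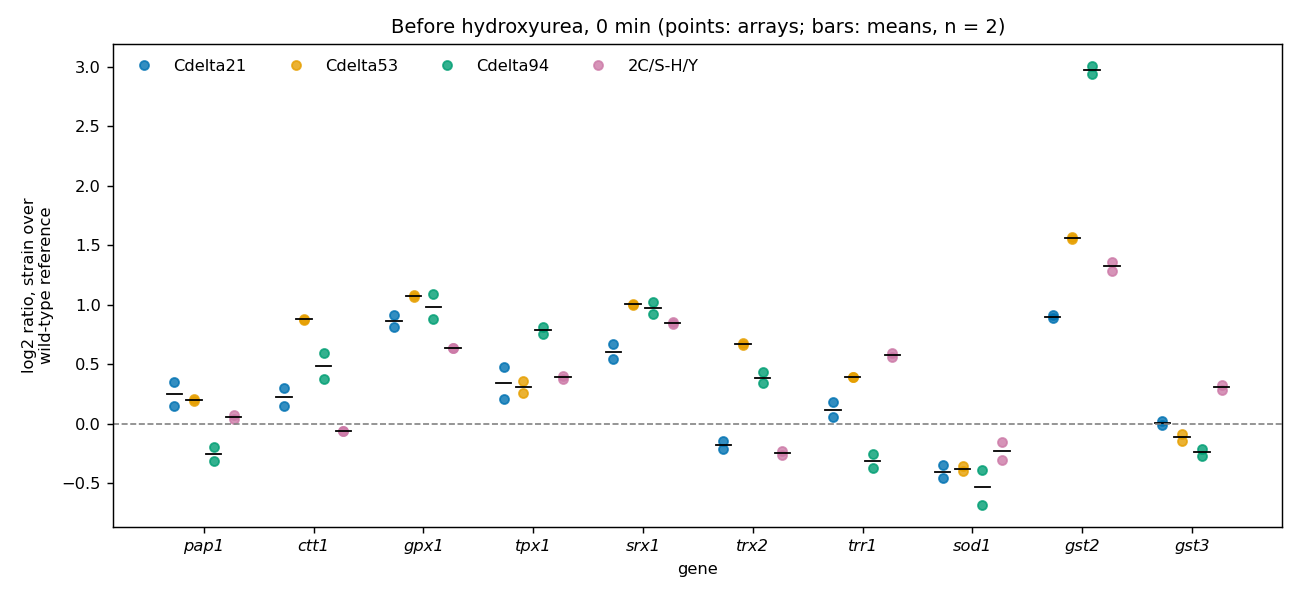
Log2 ratio of each strain to the wild-type reference at 0 min (y axis) for the 10 genes (x axis); points are arrays and black bars are means of 2 arrays. Cdelta94 stands at 2.98 for gst2, above 1.56 in Cdelta53, and sod1 lies below 0 on all 8 arrays.

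With near-repeat arrays counted once, pap1, tpx1 and sod1 no longer passed in Cdelta53 (adjusted p = 0.201, 0.0877 and 0.0912) and ctt1 no longer passed in Cdelta21 (adjusted p = 0.0782). The count in Cdelta21 was 3 without replicate 1 at 0 min, and that in Cdelta94 was 6 without replicate 2. The calls of gst2, srx1 and gpx1 held in these 3 fits in all 4 strains.

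Set against each other at 0 min, Cdelta94 and 2C/S-H/Y differed most, both among the 10 genes and over all features. In 2C/S-H/Y minus Cdelta94, 8 of the 10 genes passed, 3 higher and 5 lower, against 64.8% of all features. Among the 5 lower, ctt1 and tpx1 depended on the probe: ctt1 was at 0.037 with probe 1 alone and tpx1 at 0.40 with probe 2 alone. Thioredoxin reductase trr1 was higher in 2C/S-H/Y by 0.89 (1.86-fold, adjusted p = 3.56e-07), gst3 by 0.55 and pap1 by 0.31, while gst2 was lower, with a difference of −1.66. In Cdelta94 minus Cdelta21, 6 of 10 passed, against 60.9% of all features, and gst2 was higher by 2.08 (4.23-fold, 95% interval 1.83 to 2.33 on the log2 scale, adjusted p = 3.74e-13).

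In Cdelta94 minus Cdelta53, 5 of 10 passed, against 44.7% of all features, with a difference of 1.41 for gst2 (0.32, adjusted p = 0.136, after quantile normalization between arrays) and −0.71 for trr1. In Cdelta53 minus Cdelta21, 4 of 10 passed, against 44.1%, and all were higher in Cdelta53: trx2 by 0.85, gst2 by 0.67, ctt1 by 0.65 (but −0.055, adjusted p = 0.8, with probe 1 alone) and srx1 by 0.40. In 2C/S-H/Y minus Cdelta53, 4 of 10 passed, against 52.8%, with differences of −0.94 for ctt1 and −0.92 for trx2. In 2C/S-H/Y minus Cdelta21, 3 of 10 passed, against 29.4%: trr1 by 0.46, gst2 by 0.42 and srx1 by 0.24, all higher in 2C/S-H/Y. These shares were near or below those over all features, except 8 of 10 against 64.8% between 2C/S-H/Y and Cdelta94. That difference of shares was not tested.

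In hydroxyurea, the changes called as means over the strains were rises. With the 4 strains weighted equally and averaged, 2 of the 10 genes rose at 10 min, 6 at 30 min, 4 at 60 min and 7 at 120 min, and 0 fell in limma (1, 0, 1 and 0 were lower at an unadjusted p under 0.05). Over all features 5.5%, 13.1%, 12.9% and 23.9% rose at these times, and 9.49%, 26.7%, 33.1% and 48.2% changed in either direction. Of the members, 7 of 10 was thus above the share of rises over all features at 120 min, but the genes were chosen with earlier results of these data known. The median change of the 10 genes was −0.00, 0.23, 0.09 and 0.42, and that of all features was 0.00, −0.01, −0.02 and −0.00.

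At 120 min gst2 rose by 1.62 (95% interval 1.50 to 1.75, 3.08-fold, adjusted p = 4.32e-18), srx1 by 1.26 (1.18 to 1.35, 2.40-fold), gpx1 by 0.69 (0.54 to 0.84, 1.62-fold), gst3 by 0.59 (0.47 to 0.71, 1.51-fold) and ctt1 by 0.54 (0.42 to 0.67, 1.46-fold). Smaller rises were called for tpx1, at 0.31 (adjusted p = 8.54e-05), and for pap1, at 0.14 (adjusted p = 0.0158). The thioredoxin genes and sod1 did not pass, with −0.08 for trr1 (95% interval −0.20 to 0.05), −0.14 for trx2 (−0.30 to 0.01) and −0.07 for sod1 (−0.25 to 0.10).

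The rise of pap1 rested on part of the arrays: it was 0.14 with an adjusted p of 0.106 with near-repeat arrays counted once, 0.03 (adjusted p = 0.701) without the strain 2C/S-H/Y and 0.11 (adjusted p = 0.057) without replicate 2 of Cdelta21 at 0 min. By probe, tpx1 rose by 0.47 at probe 2 (adjusted p = 0.000436 over 9438 probes), and probe 1 was at 0.15 (adjusted p = 0.149). For ctt1 the probes gave 0.79 (probe 2) and 0.30 (probe 1), and both passed. Without the Cdelta94 arrays labelled 30 and 120 min and with near-repeats counted once, the same 7 genes passed at 120 min, with gst2 at 2.07, srx1 at 1.42, gpx1 at 0.93, ctt1 at 0.68, gst3 at 0.67, tpx1 at 0.41 and pap1 at 0.22 (adjusted p = 0.0194). The sizes also depended on the scaling. After quantile normalization between arrays, changes at 120 min in 2C/S-H/Y, Cdelta94, Cdelta53 and Cdelta21 were 0.96, 0.22, 0.22 and 1.89 for gst2. In that order they were 0.92, 0.58, 0.51 and 0.72 for srx1 and 0.77, −0.14, −0.16 and 0.35 for gpx1. For tpx1 they were −0.08, −0.10, 0.42 and −0.003. All were below those on the deposited scale. For gst3 (0.56, 0.26, 0.52 and 0.53) and ctt1 (0.97, 0.03, −0.09 and 0.29), all but those of Cdelta21 were.

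**Figure D3:**
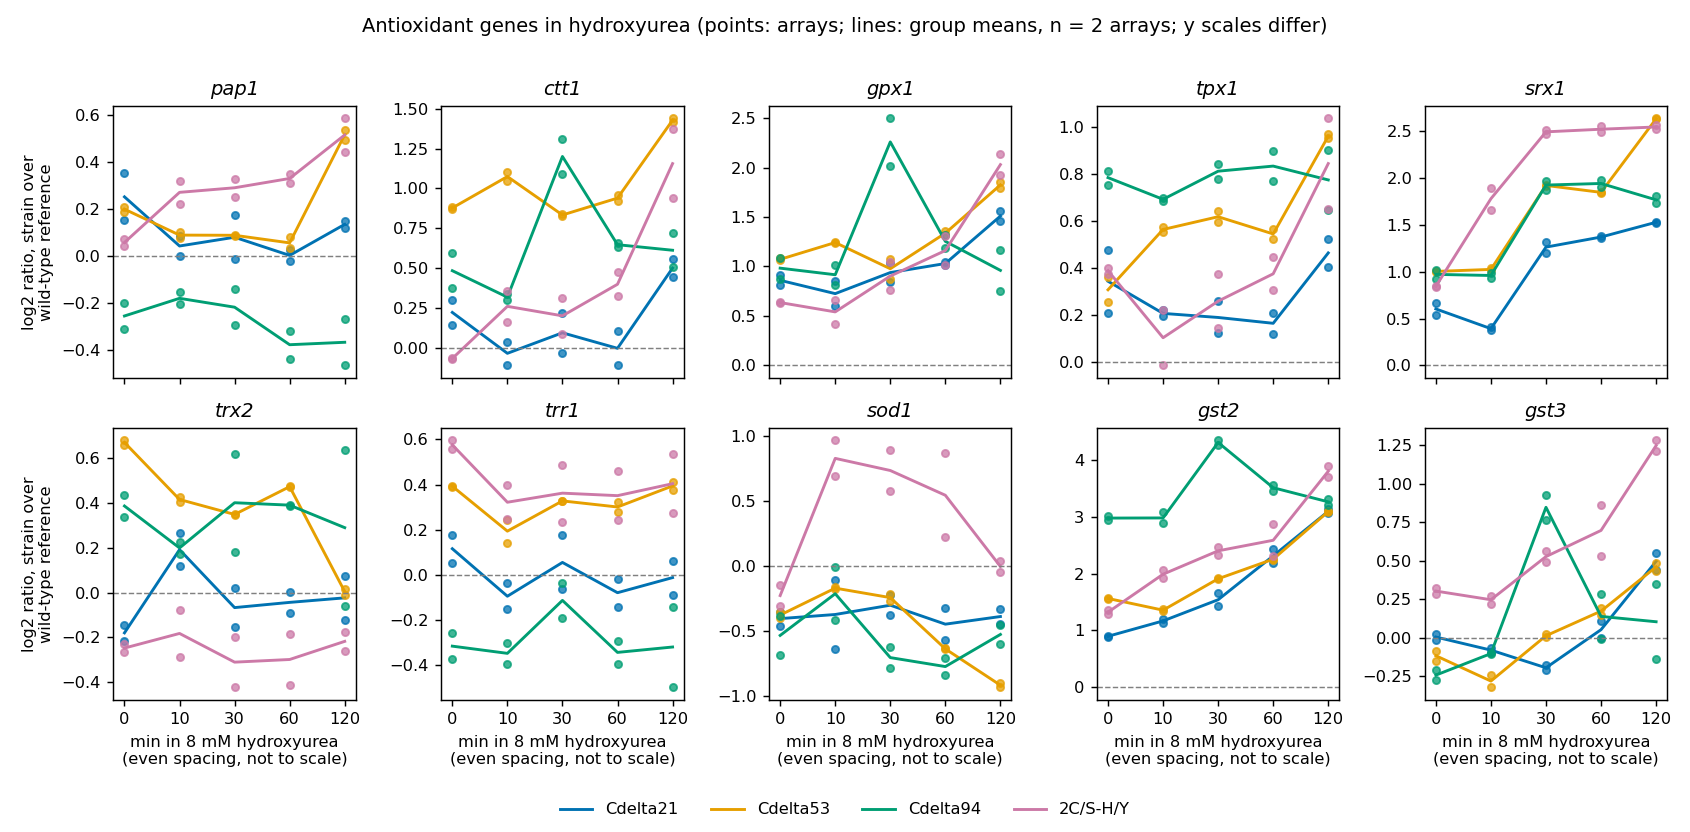
Log2 ratio of each strain to the wild-type reference (y axis, scales differ between genes) by labelled time in 8 mM hydroxyurea (x axis, min, evenly spaced); points are arrays and lines are means of 2 arrays. Both gst2 and srx1 climb in Cdelta21, Cdelta53 and 2C/S-H/Y, the Cdelta94 line peaks in the arrays labelled 30 min for gst2, gpx1, gst3 and ctt1, and sod1 is above 0 in 2C/S-H/Y at 10, 30 and 60 min.

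At the earlier times srx1 and gst2 were called as large changes. As the mean over strains, srx1 stood at 1.05 at 30 min (2.06-fold, adjusted p = 3.19e-17) and 1.07 at 60 min, and gst2 at 0.85 and 0.98. At 30 min gpx1 (0.38), gst3 (0.31), sod1 (0.26) and ctt1 (0.20) also passed, but gpx1, gst3 and ctt1 were at 0.08, 0.05 and 0.03 and did not pass without the Cdelta94 arrays labelled 30 and 120 min (adjusted p = 0.431, 0.548 and 0.787). With near-repeat arrays counted once as well, srx1 and gst2 were the genes called at 30 min, against 282 of 4999 features.

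At 60 min gpx1 (0.31) and gst3 (0.28) passed beside srx1 and gst2, and all 4 passed with near-repeats counted once and the doubted Cdelta94 arrays left out. At 10 min srx1 (0.18, adjusted p = 0.00463) and sod1 (0.40, adjusted p = 0.00293) were called. Neither passed without 2C/S-H/Y, where srx1 was at −0.07 and sod1 at 0.19. With near-repeat arrays counted once, sod1 kept its call at 10 min (adjusted p = 0.0294) and srx1 did not (adjusted p = 0.131).

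**Figure D4:**
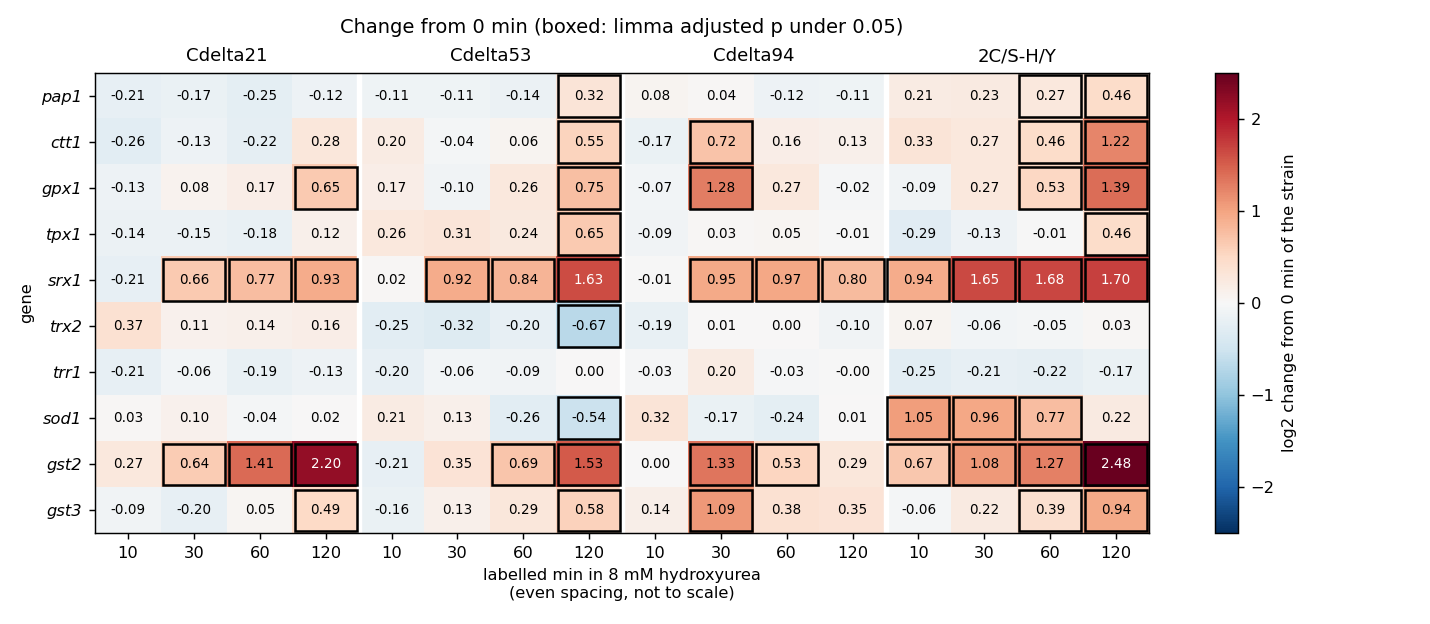
Log2 change from 0 min of the same strain (colour and printed value) for the 10 genes (rows) at each labelled time in hydroxyurea (columns, min, grouped by strain); boxes mark an adjusted p under 0.05 in limma. The row of srx1 is boxed at 30, 60 and 120 min in all 4 strains, that of trr1 nowhere, and sod1 is boxed in 2C/S-H/Y at 10, 30 and 60 min.

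Strain by strain, the time course passed an F test for 5 genes in Cdelta21 (ctt1, gpx1, srx1, gst2, gst3), 9 in Cdelta53 (all but trr1), 5 in Cdelta94 (the same 5 as in Cdelta21) and 8 in 2C/S-H/Y (all but trr1 and trx2). Of all features 24.5%, 49.8%, 33.7% and 43% passed. In Cdelta53 the count was 2 with near-repeat arrays counted once, where 478 of 4999 features passed. At 120 min against 0 min, 4 genes rose in Cdelta21, where 24.1% of all features changed and 11.5% rose. In Cdelta53 7 rose and 2 fell, where 41.1% changed and 19.8% rose. With near-repeats counted once 5 were called there, against 742 of 4999 features. In the Cdelta94 arrays labelled 120 min 1 rose, where 0.759% changed, and in those labelled 30 min 5 rose, where 24.2% changed and 12.5% rose. The site mutant 2C/S-H/Y had 7 rises, where 44.3% changed and 21.5% rose.

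At the earlier times the called changes were all rises, and srx1 and gst2 made up most of them. None of the 10 genes was called at 10 min in Cdelta21, Cdelta53 or Cdelta94, where 2.18%, 2.5% and 0.0799% of all features were (4, 1 and 0 members had an unadjusted p under 0.05 in limma). At that time 3 were called in 2C/S-H/Y (srx1, sod1 and gst2), against 23.1%. At 30 min srx1 and gst2 were called in Cdelta21, against 1.46% of all features, srx1 alone in Cdelta53, against 3.84%, and srx1, gst2 and sod1 in 2C/S-H/Y, against 25.9%. At 60 min srx1 and gst2 were the 2 members called in Cdelta21, Cdelta53 and Cdelta94, against 17.7%, 8.59% and 5.34% of all features. By then 7 members were called in the site mutant, all but tpx1, trr1 and trx2, against 29.5% of all features.

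Sulfiredoxin srx1 rose at 30, 60 and 120 min in every strain. The site mutant 2C/S-H/Y read 0.84 and 0.85 at 0 min, 1.90 and 1.66 at 10 min, 2.51 and 2.47 at 30 min, 2.49 and 2.55 at 60 min and 2.52 and 2.57 at 120 min. The level in that strain at 30 min was thus near that at 60 and 120 min. Replicate 1 at 30 and at 60 min was a near-repeat pair, so these arrays may not be separate readings. In Cdelta21 srx1 read 0.67 and 0.54, 0.38 and 0.40, 1.32 and 1.20, 1.38 and 1.36, and 1.54 and 1.52 at the same times. In both strains the arrays at 30 min and later lay above those at 0 and 10 min, and in 2C/S-H/Y the 10 min arrays lay between 0 and 30 min. The change at 10 min was 0.94 in 2C/S-H/Y (1.91-fold, adjusted p = 2.09e-09), against −0.21 in Cdelta21, 0.02 in Cdelta53 and −0.01 in Cdelta94, and the last 3 did not pass. Changes in 2C/S-H/Y rest on its 0 min arrays, whose features as a whole correlated less with 10 min than in the other strains. At 10 min 23.1% of all features were called in that strain. The part of that in the rise of srx1 was not tested.

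In Cdelta53 srx1 read 1.00 and 1.01 at 0 min, 1.93 and 1.91 at 30 min and 2.63 and 2.64 at 120 min, and its change at 120 min was 1.63 (3.10-fold, adjusted p = 7.49e-15, and 1.3e-07 with near-repeats counted once). After quantile normalization between arrays that change was 0.51 and still passed (adjusted p = 6.11e-05), and the change of srx1 in 2C/S-H/Y at 120 min was 0.92. In Cdelta94 it read 0.92 and 1.02 at 0 min, 1.91 and 1.98 at 60 min and 1.73 and 1.80 on the arrays labelled 120 min. It was the only member called on those arrays, with a change of 0.80 (adjusted p = 6.09e-07). All 8 arrays of the 4 strains at 60 min were above all 8 at 0 min.

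The transferase gene gst2 climbed through the time course in Cdelta21, where it read 0.91 and 0.89 at 0 min, 1.14 and 1.20 at 10 min, 1.43 and 1.65 at 30 min, 2.19 and 2.44 at 60 min and 3.13 and 3.06 at 120 min. No time overlapped the one before it. Its change at 120 min was 2.20 (4.59-fold, adjusted p = 1.61e-13). In 2C/S-H/Y it read 1.36 and 1.29 at 0 min, 1.92 and 2.06 at 10 min and 3.70 and 3.90 at 120 min, a change of 0.67 at 10 min (adjusted p = 0.000249, but −0.24 after quantile normalization between arrays) and 2.48 at 120 min (5.57-fold, adjusted p = 2.97e-15, and 0.96 after that normalization).

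In Cdelta53 gst2 rose by 1.53 at 120 min (2.88-fold, but 0.22, adjusted p = 0.343, after quantile normalization between arrays), with 3.10 and 3.08 at 120 min and 1.57 and 1.55 at 0 min. Cdelta94 began high, with 3.01 and 2.94 at 0 min, read 4.27 and 4.34 on the arrays labelled 30 min, 3.56 and 3.46 at 60 min and 3.20 and 3.32 on those labelled 120 min. Its changes were 1.33 (adjusted p = 8.22e-09), 0.53 (adjusted p = 0.0104) and 0.29, of which the last did not pass. On the arrays labelled 120 min the level of gst2 lay between 3.06 and 3.90 in all 4 strains, against 0.89 to 3.01 at 0 min.

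The genes of the peroxide-removing enzymes, ctt1 and gpx1, were called higher at 120 min in Cdelta53 and 2C/S-H/Y, and gpx1 also in Cdelta21. Both were also called at 60 min in 2C/S-H/Y and on the Cdelta94 arrays labelled 30 min. On the Cdelta94 arrays labelled 120 min neither passed. For gpx1, 2C/S-H/Y read 0.64 and 0.63 at 0 min, 1.01 and 1.31 at 60 min and 2.13 and 1.92 at 120 min, a change of 1.39 at 120 min (2.63-fold, adjusted p = 1.26e-08, and 0.77 after quantile normalization between arrays). In Cdelta21 and Cdelta53 the change at 120 min was 0.65 and 0.75 (adjusted p = 0.00185 and 0.000174), but after that normalization they were 0.35 and −0.16 and neither passed (adjusted p = 0.0549 and 0.398). On the deposited scale all 4 arrays at 120 min, which ran between 1.46 and 1.86, lay above all 4 at 0 min. In Cdelta94 gpx1 read 2.50 and 2.02 on the arrays labelled 30 min, against 1.09 and 0.88 at 0 min, and 1.17 and 0.75 on those labelled 120 min, which overlapped 0 min.

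Catalase ctt1 read 1.37 and 0.94 at 120 min in 2C/S-H/Y, against −0.07 and −0.06 at 0 min, a change of 1.22 (2.33-fold, adjusted p = 7.37e-09). Both probes rose there, by 0.67 at probe 1 and 1.77 at probe 2. In Cdelta53 ctt1 rose by 0.55 at 120 min (adjusted p = 0.000862, and 0.0765 with near-repeats counted once), and was at −0.09 after quantile normalization between arrays. In Cdelta21 it was at 0.28 and did not pass on the mean of both probes. In Cdelta94 it was 0.72 on the arrays labelled 30 min, with probe 1 at 0.08 and probe 2 at 1.35. On the mean of both probes, the peroxiredoxin gene tpx1 rose at 120 min in Cdelta53 (0.65) and 2C/S-H/Y (0.46, but −0.08 after quantile normalization between arrays). Probe 2 passed in both strains (1.02 and 0.60), while probe 1 did not (0.28 and 0.31, adjusted p = 0.176 and 0.128). The mean change of tpx1 was 0.12 in Cdelta21 and −0.01 in Cdelta94.

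Superoxide dismutase sod1 was set apart by an early rise in 2C/S-H/Y. In that strain it read −0.31 and −0.15 at 0 min, 0.96 and 0.69 at 10 min, 0.89 and 0.57 at 30 min, 0.86 and 0.22 at 60 min and −0.05 and 0.04 at 120 min. All arrays at 10, 30 and 60 min were above both 0 min arrays, and the values at 120 min were near 0. The change was 1.05 at 10 min (2.08-fold, adjusted p = 5.16e-05), 0.96 at 30 min, 0.77 at 60 min and 0.22 at 120 min, the last not passing. The 60 min change was 0.45 (adjusted p = 0.153) with near-repeat arrays counted once, since replicate 1 was then left out.

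In the truncation strains sod1 stayed below 0 on all 30 arrays. Cdelta53 read −0.36 and −0.40 at 0 min and −0.90 and −0.93 at 120 min, a change of −0.54 (adjusted p = 0.0123, and 0.132 with near-repeats counted once). In Cdelta21 the changes lay between −0.04 and 0.10 and in Cdelta94 between −0.24 and 0.32, and no time passed. The early rise in 2C/S-H/Y rests on its 0 min arrays, whose features as a whole correlated less with 10 min than in the other strains, and the part of that in the result was not tested.

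Of the thioredoxin genes, trx2 was called in Cdelta53 at 120 min and at no other time or strain. For trr1 no time in any strain passed, and its changes ran between −0.25 and 0.20. After quantile normalization between arrays, trr1 in 2C/S-H/Y at 120 min was at −0.38 and passed (adjusted p = 0.0112). For trx2 the fall of 0.67 at 120 min in Cdelta53 was called (adjusted p = 0.000678, and 0.0645 with near-repeats counted once), with 0.02 and −0.01 at 120 min and 0.68 and 0.66 at 0 min. In the other strains trx2 changed by −0.19 to 0.37 and did not pass. Over the whole course the 10 arrays of trr1 ran between 0.24 and 0.60 for the site mutant 2C/S-H/Y. They ran between 0.14 and 0.41 for Cdelta53, −0.15 and 0.18 for Cdelta21, and −0.50 and −0.04 for Cdelta94. Each range overlapped the next one in that order, and ranges further apart did not overlap.

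The transcription factor gene pap1 was low in Cdelta94 on all 10 arrays (−0.47 to −0.14, median −0.28) and no time passed there. At 120 min it rose by 0.46 in 2C/S-H/Y (adjusted p = 0.000204) and in Cdelta53 by 0.32 (adjusted p = 0.00683, and 0.208 with near-repeats counted once), and was at −0.12 in Cdelta21. Those are levels of its RNA, and the array does not measure the nuclear entry that activates the protein. The second transferase gene gst3 read 1.21 and 1.28 at 120 min in 2C/S-H/Y, against 0.32 and 0.28 at 0 min, a rise of 0.94, and rose by 0.49 in Cdelta21 and 0.58 in Cdelta53. On the Cdelta94 arrays labelled 30 min gst3 read 0.93 and 0.77, against −0.27 and −0.21 at 0 min, a rise of 1.09.

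The time courses differed between strains for 8 of the 10 genes by the interaction F test, all but trr1 (adjusted p = 0.765) and trx2 (adjusted p = 0.0684), against 52.6% of all features. With near-repeat arrays counted once pap1 and tpx1 no longer passed (adjusted p = 0.122 and 0.158), where 829 of 4999 features passed. With the Cdelta94 arrays labelled 30 and 120 min left out as well, 378 of 4999 features passed. Of the members, srx1 (adjusted p = 0.000717) and gst2 (adjusted p = 0.00755) were then the 2 that passed.

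For gst2 the response at 60 min was smaller in Cdelta94 than in Cdelta21, by 0.88 on the log2 scale (95% interval −1.24 to −0.52, adjusted p = 0.013), where 0.3% of all features differed, and 1 of the 10 genes did. It kept its call with near-repeats counted once (adjusted p = 0.0237). At 60 min in Cdelta53 minus Cdelta21 gst2 was also the 1 gene of 10 that passed, at −0.72 (adjusted p = 0.0271, and 0.553 with near-repeats counted once), where 1.72% of all features did. In both strains the level of gst2 at 0 min was above that in Cdelta21. On the arrays labelled 120 min the change of gst2 was 1.91 smaller in Cdelta94 than in Cdelta21.

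For srx1 the response of 2C/S-H/Y was larger than that of each truncation strain at 60 min, by 0.91 over Cdelta21 (adjusted p = 4.19e-06), 0.83 over Cdelta53 and 0.71 over Cdelta94. With near-repeat arrays counted once these were 0.94, 0.86 and 0.74 and still passed (adjusted p = 0.00193, 0.0236 and 0.0147). At that time 4 of the 10 genes differed in each of these 3 comparisons, all larger in 2C/S-H/Y. Of all features 18.5%, 14% and 14.6% differed, and 12.8%, 8.09% and 8.67% were larger in 2C/S-H/Y. Among the 4 genes were pap1 (0.52, 0.42 and 0.40) and sod1 (0.81, 1.03 and 1.01) in all 3, each set given for Cdelta21, Cdelta53 and Cdelta94. With near-repeats counted once neither gene passed in any of the 3. The remaining calls were ctt1 over Cdelta21 (0.69) and gst2 over Cdelta53 (0.57) and Cdelta94 (0.73). Of these, gst2 over Cdelta94 kept its call with near-repeats counted once (adjusted p = 0.00336). After quantile normalization between arrays the gst2 differences were −0.19 over Cdelta53 and −0.26 over Cdelta94. All these comparisons share the 2C/S-H/Y arrays at 0 and 60 min.

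At 120 min the response of 2C/S-H/Y exceeded that of Cdelta21 for pap1 (0.58), ctt1 (0.94), gpx1 (0.74) and srx1 (0.78), 4 of 10 against 18.6% of all features. After quantile normalization between arrays the changes of srx1 in 2C/S-H/Y and Cdelta21 lay closer, at 0.92 and 0.72. In the same order they were 0.34 and −0.11 for pap1, 0.97 and 0.29 for ctt1 and 0.77 and 0.35 for gpx1. On the deposited scale the response of 2C/S-H/Y exceeded that of Cdelta53 for 5 genes, against 27.9% of all features: gst2 (0.95), sod1 (0.76), trx2 (0.70), ctt1 (0.67) and gpx1 (0.64), of which gst2 passed with near-repeats counted once. For sod1 and trx2 the called changes were falls in Cdelta53 (−0.54 and −0.67), and neither gene was called in 2C/S-H/Y at 120 min. Between Cdelta53 and Cdelta21 at 120 min 5 of 10 genes differed, against 15.8% of all features, with srx1 (0.70, but −0.20 after quantile normalization between arrays), tpx1 (0.53) and pap1 (0.44) larger in Cdelta53 and trx2 (−0.82) and gst2 (−0.67) smaller. None of these 5 passed with near-repeats counted once, where srx1 had an adjusted p of 0.0507. Against the Cdelta94 arrays labelled 120 min, 7 genes differed in 2C/S-H/Y and 6 in Cdelta53, where 26% and 22.5% of all features did. With near-repeats counted once, tpx1 no longer passed in 2C/S-H/Y (adjusted p = 0.0956), and srx1 and gst2 were the 2 that passed in Cdelta53 (adjusted p = 0.00804 and 0.000768). For srx1, Cdelta94 minus Cdelta53 was −0.83, but 0.069 (adjusted p = 0.777) after quantile normalization between arrays.

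Other genes of the redox pathways were read from lists of 46 genes, of which 45 were measured and bfr1 was not matched to a probe. As the mean over strains, 5, 14, 10 and 18 of the 45 rose at 10, 30, 60 and 120 min and 2, 2, 7 and 7 fell, and their median change was 0.02, 0.06, 0.04 and 0.08. Over all features 5.5%, 13.1%, 12.9% and 23.9% rose and 4%, 13.6%, 20.2% and 24.4% fell, so the falls among the 45 were near or below the share over all features. With near-repeats counted once 1, 7 and 10 changed at 10, 30 and 60 min in place of 7, 16 and 17. Of all 4999 features tested then, 77, 603 and 1009 changed. Among 21 thiol and glutathione enzymes 10 rose and 2 fell at 120 min, against 23.9% and 24.4% of all features. The thioredoxin-dependent peroxidase gene bcp1 rose by 0.89, the glutaredoxin gene grx1 by 0.76, the methionine sulfoxide reductase gene mxr1 by 0.71 and the peroxiredoxin family gene pmp20 by 0.43.

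Of 6 genes that supply NADPH, which glutathione and thioredoxin reductases use, 4 rose at 120 min and 0 fell in limma, against 23.9% and 24.4% of all features. The glucose-6-phosphate dehydrogenase gene zwf1 rose by 0.74 (adjusted p = 5.87e-12), the isocitrate dehydrogenase gene idp1 by 0.55, the glucose dehydrogenase gene gcd1 by 0.50 and the phosphogluconate dehydrogenase gene gnd1 by 0.23. Regulators and other targets of Pap1 and Prr1 were mixed, with 3 of 7 higher and 3 lower: oxs1 (0.51), caf5 (0.49) and obr1 (0.23) rose, while crm1, which exports Pap1 from the nucleus, fell by 0.25. Of 11 genes of the Sty1 branch 1 rose and 2 fell, which is below these shares over all features: the phosphatase gene pyp2 rose by 0.26, and the kinase gene wis1 fell by 0.54 and the transcription factor gene atf1 by 0.19.

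The genes most like 4 members in pattern were taken by Pearson's r over the 20 group means, which share the reference pool, so r is a description. For gst2 they were hsp3101, pbi2 and osr2 (each r = 0.95), and osr2 is the next protein-coding gene to gst2 in the RefSeq gene table. For srx1 they were ppk15 (0.94), the trehalase gene ntp1 (0.90) and SPAC22F8.05 (0.89). For gpx1 they were rdi1 (0.92), rbk1 (0.91) and bcp1 (0.90), and for gst3 SPBC2A9.02 (0.96), opi10 (0.92) and pgc1 (0.92). Among the members, the pairs with the highest r were pap1 with trr1 (0.81) and ctt1 with gpx1 (0.79).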

How the data were processed

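The authors deposited log2 ratios, 1 value for each of 9858 probes on 40 two-colour arrays; the table held 0 other sample columns. Base 2 was settled from the values: raised as powers of 2, 100% of those below 0 fell on steps of 0.001 (tolerance 0.02 of a step), against 5.51% for base e and 3.48% for base 10. Dyes and growth are given per the labels' protocols. The sources used here do not give the scanner, background correction or normalization, intensities and spot quality were not used, and the number of arrays limits the precision. Of all values 1.17% were missing, and array medians ran between −0.12 and 0.06.

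The probes of a gene were averaged, and of 5042 features 5004 had values on 80% or more of the arrays and in every group and were tested. Strain names come from the sample titles, since the description field names another mutant. The test was limma's (version 3.58.1, run under R 4.3.3; lmFit with 20 group means and 20 residual degrees of freedom, then eBayes; two-sided), with Benjamini-Hochberg adjustment over all features and a threshold of 0.05. All 10 members matched the RefSeq table of ASM294v3, used for names and gene order. The genes, lists and tests were chosen with earlier results of these data known.

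All members are named. Of each list of other redox genes up to 4 past the threshold at 120 min with the largest change are named, and for the 4 members with the largest change at 120 min the 3 genes most like them. Arrays whose probe differences had an SD under 0.1 were treated as near-repeats. Counting them once averaged the 5 Cdelta53 pairs and left out replicate 1 of 2C/S-H/Y at 30 and 60 min. The alternatives were other scalings (each array centred on its median, quantile normalization), each probe alone, no filter on missing values, robust eBayes, a replicate block, near-repeats counted once, fits without the doubted Cdelta94 arrays, without 2C/S-H/Y or with only the groups compared, and each array left out. The fit was tested on simulated data.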

Additional observations from a re-analysis of the deposited data

Results flagged for a closer look

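The time course in hydroxyurea differed between the 4 strains for 8 of the 10 genes by the interaction F test, which is why they are listed here. The adjusted p was 1.62e-10 for gst2, 1.98e-08 for srx1, 1.53e-07 for gpx1, 4.9e-06 for gst3, 1.04e-05 for ctt1, 0.00188 for sod1, 0.00226 for pap1 and 0.0123 for tpx1. The change at 120 min in 2C/S-H/Y and on the Cdelta94 arrays so labelled was 2.48 and 0.29 for gst2, 1.39 and −0.02 for gpx1, 0.94 and 0.35 for gst3, 1.70 and 0.80 for srx1 and 1.22 and 0.13 for ctt1. The time labels of those Cdelta94 arrays are in doubt, and the arrays labelled 30 min changed by 1.33, 1.28, 1.09, 0.95 and 0.72 for the same genes. For sod1 the change at 10 min was 1.05 in 2C/S-H/Y, 0.32 in Cdelta94, 0.21 in Cdelta53 and 0.03 in Cdelta21, and at 120 min it was 0.22 in 2C/S-H/Y and −0.54 in Cdelta53. For pap1 the change at 120 min was 0.46 in 2C/S-H/Y and −0.12 in Cdelta21. For tpx1 it was 0.65 in Cdelta53 (0.28 at probe 1 and 1.02 at probe 2) and −0.01 in Cdelta94. Without the doubted Cdelta94 arrays and with near-repeats counted once, srx1 and gst2 passed and the other 6 did not, where 378 of 4999 features passed.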

How the results depend on the processing

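Over planned and added settings, 4235 of 4590 single-gene results kept direction and side of the threshold, 201 no longer passed, 130 newly passed and 24 changed sign; with one array left out, 2792 of 2960 kept both and 0 changed sign. The cause was not tested where none is named. The setting that joined near-repeats counted once with leaving out the Cdelta94 arrays labelled 30 and 120 min was chosen after seeing the data. Near-repeats counted once leave fewer arrays, and calls then fell over all features. For the F test in Cdelta53 478 of 4999 features passed, against 2491 of 5004, and for the interaction 829, against 2632. Signal over background was not used, so its limits are unknown.

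As the mean over strains at 10 min, 2 members were called; the count was 1 with probe 1 alone, 4 with probe 2 alone, 4 with the replicate block, 1 with near-repeats counted once, 4 without the doubted Cdelta94 arrays, 0 without 2C/S-H/Y (limma), 4 with only the groups compared and 1 with the joined setting. At 30 min it was 6, against 3 without the doubted arrays and 2 with the joined setting. In Cdelta53 the F test gave 9, against 2 with near-repeats once and 4 with the joined setting, and at 120 min 9, against 4 after quantile normalization and 5 with near-repeats once. In Cdelta94 at 120 min it gave 1, against 0 with only the groups compared and 1 to 2 with one array left out (2 without its 120 min replicate 2). The interaction gave 8, against 5 with probe 1 and 2 with the joined setting. At 0 min, Cdelta94 minus Cdelta53 gave 5, against 3 with probe 1. 2C/S-H/Y minus Cdelta21 gave 3, against 6 after quantile normalization, 5 with the replicate block and 1 to 2 with one array left out (1 without either Cdelta21 array or 2C/S-H/Y replicate 1). 2C/S-H/Y minus Cdelta53 gave 4, against 2 with near-repeats once. Against the reference, Cdelta21 gave 7 (3 to 6 with one array left out, 3 without its replicate 1) and Cdelta94 10 (6 to 8, 6 without its replicate 2).

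Of the other redox genes 7 were called at 10 min, against 15 after quantile normalization, 4 with probe 1, 2 with probe 2, 1 with near-repeats once, 2 without 2C/S-H/Y, 1 with the joined setting and 2 to 7 with one array left out, the lowest without Cdelta21 0 min replicate 1, either Cdelta53 0 min array, Cdelta53 10 min replicate 2, 2C/S-H/Y 0 min replicate 1 or 2C/S-H/Y 10 min replicate 2. At 30 min 16 became 10 with probe 2, 7 with near-repeats once and 3 with the joined setting, and at 60 min 17 became 10 with near-repeats once.

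Signs turned as follows. With probe 1 alone, against the reference tpx1 was −0.27 in Cdelta21 and −0.46 in 2C/S-H/Y; at 0 min ctt1 was −0.37 in Cdelta94 minus Cdelta21, −0.055 in Cdelta53 minus Cdelta21 and 0.037 in 2C/S-H/Y minus Cdelta94, and tpx1 was 0.89 in Cdelta53 minus Cdelta21 and −1.08 in 2C/S-H/Y minus Cdelta53. With probe 2 alone tpx1 was −2.6e-05 in Cdelta53 against the reference, −0.12 in Cdelta94 minus Cdelta21 and 0.40 in 2C/S-H/Y minus Cdelta94. After quantile normalization, the change at 120 min in Cdelta53 was −0.088 for ctt1 and −0.16 for gpx1, that of tpx1 in 2C/S-H/Y was −0.084 and that of gst2 at 10 min in 2C/S-H/Y −0.24. Differences of response were then 0.021 for gpx1 and 0.069 for srx1 (Cdelta94 minus Cdelta53, 120 min), −0.20 for srx1 (Cdelta53 minus Cdelta21, 120 min), −0.93 for gst2 (2C/S-H/Y minus Cdelta21, 120 min), and −0.19 and −0.26 for gst2 at 60 min (2C/S-H/Y minus Cdelta53 and minus Cdelta94); at 0 min 2C/S-H/Y minus Cdelta94 was 0.27 for srx1 and 0.025 for tpx1. Without 2C/S-H/Y srx1 was −0.067 at 10 min, and with the joined setting ctt1 was −0.0050 at 30 min, both as means over strains.

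Replicate numbers were not taken to pair the arrays, since the labels tie them to no shared batch and not every correlation was over 0.1: differences between replicates 1 and 2 of a strain correlated between times at −0.24 to 0.65, over 0.1 in 8 of 10 pairs of times in 2C/S-H/Y (0.06 to 0.65), 5 in Cdelta94, 5 in Cdelta21 and 3 in Cdelta53.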
